A study of Mus musculus with 4 samples.

Results

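Tfh-like cells were the cells that the study's annotation labelled Tfh-like, a name given there to a cluster made from the RNA of the same nuclei. They numbered 400 of 15621 labelled cells, of which the cecum gave 311 and the tumor 89. T cells had been sorted from AKP colorectal tumors, grown from transplanted mouse tumor organoids, and from adjacent cecum without tumor, 4 weeks after transplantation. Nuclei were profiled by a single-cell multiome assay (nuclear RNA and ATAC, which maps open chromatin by transposase cuts), with 1 ATAC library per tissue. The host genotype for these libraries, the number of animals behind them and their age were not given in the sources used here. The Tfh-like cells of the cecum held 2132387 ATAC fragments and those of the tumor 560742. Values are fragments per 1000000 fragments of a label (FPM), and log2 ratios compare Tfh-like cells with the other 8 CD4 labels summed: CCR7+ CD4, newly activated CD4, Mucosal Th1, Th17, Th2, PD1+ CD4, IL10+ Treg and IL10- Treg. Because each tissue was 1 library, no test was made, and each interval is an exact 95% interval for counting error only.

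T follicular helper (Tfh) cells are CD4 T cells that enter B cell follicles and help B cells form germinal centers. The chemokine receptor CXCR5 guides them there, the transcriptional repressor BCL6 sets their program, and IL-21 is their main helper cytokine. BLIMP1 (Prdm1) and IL-2 signalling through STAT5 are known to oppose that program. In the gut, Tfh cells are known for supporting IgA responses in lymphoid tissue.

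Tfh-like cells were 4.35% (3.89 to 4.85) of labelled cecum cells and 1.05% (0.845 to 1.29) of labelled tumor cells. Among cells of the 9 CD4 labels their share was 10.1% (9.08 to 11.2) for the cecum and 2.91% (2.34 to 3.56) for the tumor, so the label was the smaller fraction of tumor T cells by either denominator. The cecum gave 77.8% of all Tfh-like cells, against 45.8% of all labelled cells. Sorting and cell recovery can set such shares, and tissue and library cannot be told apart. The median depth of Tfh-like cells was 5499 fragments for the cecum (range 181 to 23056) and 4576 for the tumor (range 333 to 20822). The libraries shared 84 cell barcodes, of which 9 carried the label in the cecum, 0 in the tumor and 0 in both.

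The label was checked against Cxcr5, Bcl6 and Cd4, counting each gene's span with 5 kb on both sides. The authors describe their Tfh cluster as positive for Cxcr5 and Bcl6, so this check is not independent of the label. Cxcr5 was highest in Tfh-like cells in both libraries, with cecum 158 FPM (142 to 176) and tumor 171 FPM (139 to 209). The next labels in order were CCR7+ CD8 in the cecum at 137 FPM (117 to 159), whose interval overlapped, and Innate-like T#2 in the tumor at 126 FPM (114 to 140), whose interval overlapped by 1 FPM. In the tumor IL10+ Treg cells, a CD4 label, also had 126 FPM. The Cxcr5 log2 ratio to the other CD4 labels was 0.75 (0.58 to 0.92) for cecum cells and 1.01 (0.69 to 1.3) for tumor cells. Within 1 kb of either end of the gene it was 1.27 and 1.70. The window of Cxcr5 overlaps that of Bcl9l, so fragments there cannot be assigned to one gene. The same holds for 52 of the 114 listed genes, among them Sh2d1a (with Tenm1), Cd200 (Gm609), Cd40lg (Arhgef6), Selplg (Coro1c), Il18r1 (Il1rl1), Cd79a (Rps19 and Arhgef1) and Cd68 (Eif4a1 and others). Bcl6 itself set Tfh-like cells little apart. Their 162 FPM (cecum) and 143 FPM (tumor) were below Innate-like T#1 cells at 186 and 179 FPM and ranked 5 of 16 and 6 of 17 labels of at least 50 cells. The Bcl6 log2 ratio was 0.25 (0.081 to 0.41) and 0.18 (-0.16 to 0.50). Cd4, the co-receptor of helper T cells, was level with the other CD4 labels at 90.0 and 74.9 FPM (log2 -0.038 and -0.039), and Cd8a was at 5.63 and 8.92 FPM against 95.5 and 90.0 FPM in PD1+ CD8 cells. The chromatin thus put Tfh-like cells above the other CD4 labels summed at Cxcr5, but not clear of every single label. It placed them among CD4 cells and set them little apart at Bcl6.

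**Figure D1:**
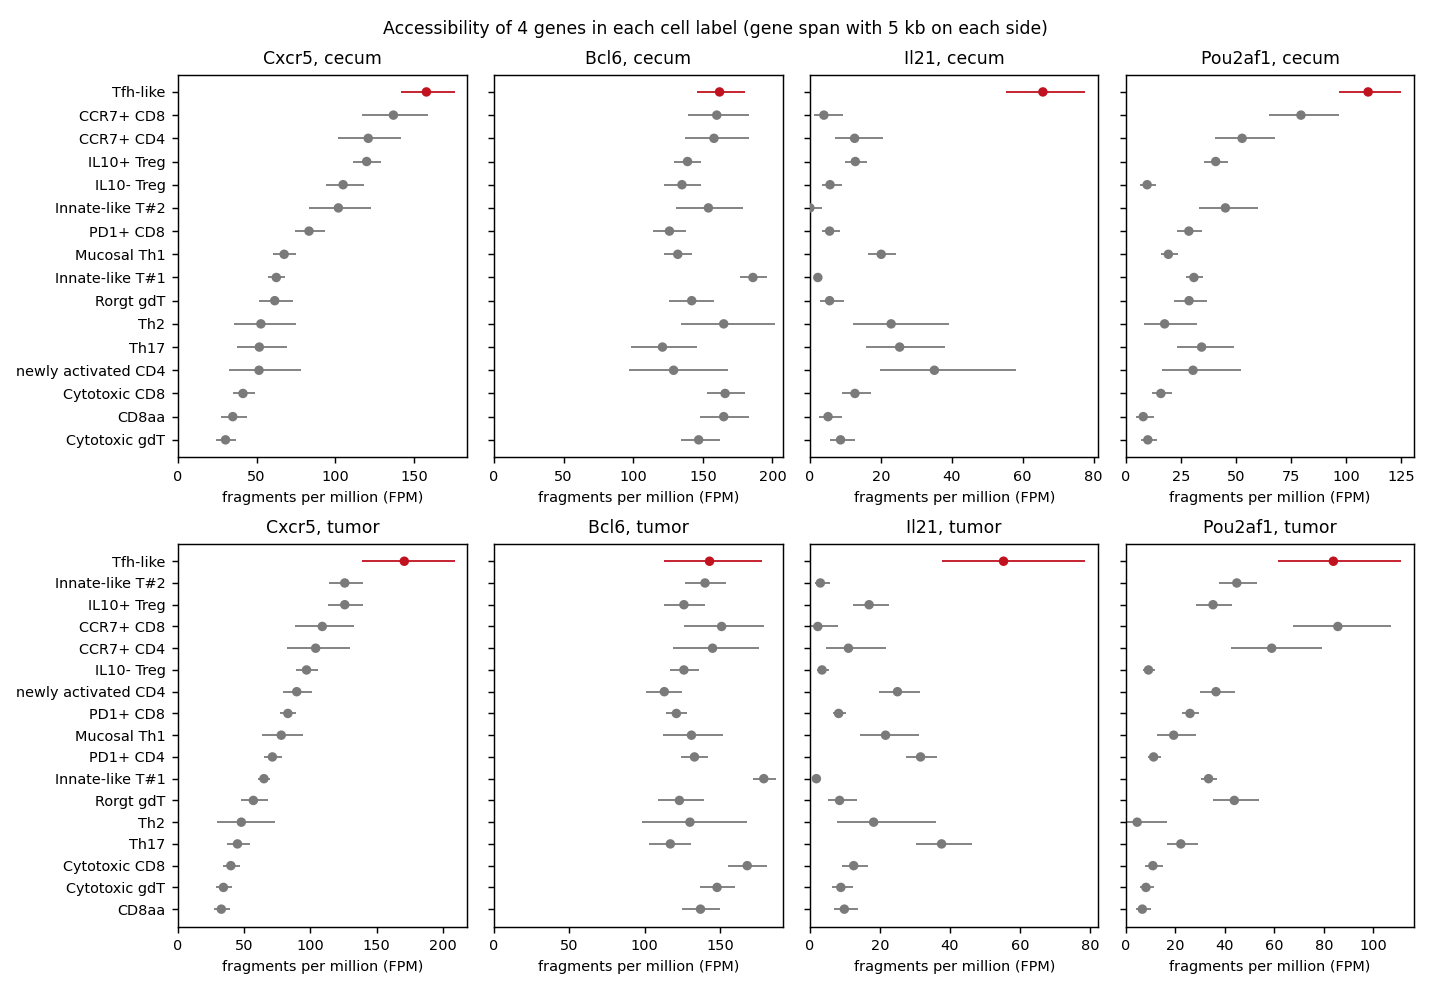
Accessibility of Cxcr5, Bcl6, Il21 and Pou2af1 (FPM, x axis) in each label of at least 50 cells, ordered by Cxcr5, in the cecum (upper row) and tumor (lower row); points are levels and lines 95% counting intervals, with Tfh-like cells in red. Cxcr5 and Il21 are highest in Tfh-like cells in both libraries (Il21 at 65.7 and 55.3 FPM), while Bcl6 at 162 and 143 FPM lies within the spread of the other labels.

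The main group was a list of 35 follicular genes: 15 transcription factors, 18 receptors and signalling genes and 2 cytokines. In the cecum 10 of the 35 were higher in Tfh-like cells by at least 1.5-fold and 0 were lower, beside 5.51% of all 16054 genes tested higher and 6.65% lower. In the tumor 10 were higher and 1 lower, beside 6.14% and 14.2% of 16584 genes. The list's median log2 ratio was 0.26 (cecum) and 0.31 (tumor), while the median of all genes was 0.0034 and 0.015. Counting intervals lay above no difference for 21 members and below it for 3 in the cecum, beside 13.6% and 11.4% of all genes. In the tumor they did so for 14 and 0 members, beside 7.56% and 5.96%.

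Among the transcription factors, Pou2af1 stood out. Pou2af1 encodes OCA-B (BOB.1), a co-activator of octamer-binding factors known in B cells and helper T cells. It was at 110 FPM in Tfh-like cells of the cecum and 83.8 FPM in those of the tumor, with 28.2 and 20 FPM in the other CD4 labels. The log2 ratio was 1.97 (1.74 to 2.19) and 2.07 (1.60 to 2.50). CCR7+ CD8 cells came close to Tfh-like cells at 79.5 FPM (64.8 to 96.6) in the cecum and lay level with them at 85.6 FPM (67.4 to 107) in the tumor. Ascl2, a factor known to induce Cxcr5, was also past 1.5-fold, but on 14 and 5 fragments (log2 0.75, -0.20 to 1.59, and 1.20, -0.45 to 2.48). Tox2 and Tox, HMG-box factors of follicular and chronically stimulated T cells, had log2 ratios of 0.54 (0.41 to 0.67) and 0.51 (0.40 to 0.61) in the cecum, and 0.35 (0.076 to 0.62) and 0.11 (-0.10 to 0.32) in the tumor. IL10- Treg cells had more over Tox in both libraries, at 497 against 404 FPM in the cecum and 400 against 332 FPM in the tumor. Within 1 kb of either gene end Tox turned to -0.61 in the tumor. The remaining 11, among them Maf, Tcf7, Lef1, Batf and Stat3, lay between -0.23 (Irf4, which turned to 0.044 near start sites) and 0.32 (Tcf7) in the cecum. Tcf7 and Lef1 (0.32 and 0.21) turned to -0.086 and -0.034 when both Treg labels were left out of the comparison.

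Of the 18 receptors and signalling genes, 7 were past 1.5-fold higher in the cecum and 7 in the tumor, beside 5.51% and 6.14% of all genes. Cd200, a surface glycoprotein that engages an inhibitory receptor, was at 52.5 FPM in Tfh-like cells against 23.1 FPM (log2 1.19, 0.87 to 1.49), and at 53.5 against 38.1 FPM in the tumor (log2 0.49, -0.086 to 1.01). Sh2d1a encodes SAP, the adaptor that SLAM receptors need for contact between T and B cells. It was at 69.4 against 32.4 FPM in the cecum (log2 1.1, 0.83 to 1.36) and 55.3 against 31.3 FPM in the tumor (log2 0.82, 0.25 to 1.34), the highest of all labels in both. Tnfsf8, which encodes the CD30 ligand, was at 144 against 69.7 FPM (log2 1.05, 0.86 to 1.23) and 125 against 77.9 FPM (log2 0.68, 0.31 to 1.02), and Th2 cells had more in both libraries. The CD30 ligand gene was thus raised beside the CD4 labels as a whole but was not particular to Tfh-like cells. Btla, an inhibitory receptor of lymphocytes, differed between the libraries, with 75.0 against 40.4 FPM in the cecum (log2 0.89, 0.64 to 1.14) and 49.9 against 55.4 FPM in the tumor (log2 -0.15, -0.75 to 0.39). Il6ra, the receptor for IL-6, had log2 ratios of 0.63 (0.47 to 0.79) and 0.73 (0.43 to 1.01), and Cd40lg, which encodes the CD40 ligand that T cells show to B cells, 0.63 (0.26 to 0.98) and 0.65 (-0.076 to 1.29). Btla, Cd40lg and Il6ra were higher still in some other labels. Th2 cells had 87.9 and 112 FPM over Btla. Over Cd40lg, Th2 cells had 42.2 FPM in the cecum and Mucosal Th1 cells 42.5 FPM in the tumor, against 37.5 and 35.7 FPM in Tfh-like cells. Over Il6ra, CCR7+ CD8 cells had 194 FPM in the cecum and newly activated CD4 cells 191 FPM in the tumor, against 181 and 185 FPM. In the tumor Il6st, a signalling chain of the IL-6 receptor (log2 0.80, and 0.27 in the cecum, where it turned to -0.30 near start sites), and Izumo1r were past 1.5-fold as well. Several of these calls depended on the setting. In the cecum Il6ra fell to 0.19 near start sites, and Cd40lg, without a listed start, to 0.33 within 1 kb of either gene end. Cd40lg was at 0.19 without both Treg labels, and Btla was at 0.50 against the equal-weight mean of the CD4 labels. In the tumor Cd40lg, Il6ra, Tnfsf8, Il6st and Izumo1r each fell below 1.5-fold under at least 1 alternative, and Btla went to -1.21 near start sites. The other members ranged from -0.30 (Icos, a costimulatory receptor) to 0.58 (Izumo1r, the folate receptor 4 gene) in the cecum. Within 1 kb of either gene end, as no start site was listed for it, Icos was past 1.5-fold lower in the cecum (log2 -1.21). In the tumor it was past 1.5-fold higher by that window (0.75), and no intervals are given for these values. Pdcd1, which encodes PD-1, was at 196 against 152 FPM in the cecum (log2 0.37, 0.22 to 0.52) and 191 against 171 FPM in the tumor (log2 0.16, -0.13 to 0.44). Over Pdcd1, IL10- Treg cells had 195 FPM and Innate-like T#2 cells 196 FPM in the cecum. In the tumor PD1+ CD4 cells had 230 FPM and Rorgt gdT cells 241 FPM. Pdcd1 was thus not particular to Tfh-like cells.

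Of the cytokines, Il21 was the one set apart. In the cecum Tfh-like cells had 65.7 FPM (55.2 to 77.5) over Il21, newly activated CD4 cells 35.1 FPM (19.7 to 58.0), Th17 cells 25.3 FPM and Mucosal Th1 cells 20.1 FPM. In the tumor Tfh-like cells had 55.3 FPM (37.6 to 78.5), Th17 cells 37.6 FPM (30.2 to 46.3) and PD1+ CD4 cells 31.6 FPM (27.3 to 36.3). Tfh-like cells were first in both orders, and the interval of the second label overlapped theirs in both. The log2 ratio to the other CD4 labels was 2.09 (1.78 to 2.39) and 1.41 (0.84 to 1.94). Il4, the other cytokine of the list and a defining Th2 cytokine, was at 8.91 and 5.35 FPM in Tfh-like cells against 77.4 and 47.8 FPM in Th2 cells.

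A list of 13 genes that oppose the follicular program held 3 lower and 0 higher members in the cecum, beside 6.65% of all genes lower. In the tumor 0 were past 1.5-fold, where 14.2% of all genes were lower. Its median log2 ratio was -0.36 and -0.29. Selplg encodes PSGL-1, a selectin ligand that Tfh cells are known to lose. It had 80.7 FPM in Tfh-like cells of the cecum, the lowest of 16 labels, against 144 FPM (log2 -0.83, -1.06 to -0.61), and 130 against 144 FPM in the tumor (log2 -0.15, -0.50 to 0.19). Runx3, a factor of cytotoxic and type 1 T cells, was also last, at 133 against 232 FPM (log2 -0.80, -0.98 to -0.62), with log2 -0.35 (-0.65 to -0.067) in the tumor. Il7r, the IL-7 receptor chain, had log2 ratios of -0.69 (-1.04 to -0.36) and -0.43 (-1.07 to 0.15). Prdm1 itself had -0.38 (-0.54 to -0.22) and -0.43 (-0.77 to -0.11), and Id2, an inhibitor of E proteins, was the lowest of 16 labels in the cecum at 100 FPM. Il2ra and Il2rb, both IL-2 receptor chains, were lower by less than 1.5-fold (log2 -0.36 and -0.46 in the cecum). Of the factors that act below them, Stat5a was at -0.098 (-0.30 to 0.094) and Stat5b at 0.17 (0.063 to 0.28), above no difference. Klf2, a factor of circulating T cells, was at 0.11 (-0.082 to 0.29) and Gpr183, a receptor that guides lymphocytes, at 0.044 (-0.16 to 0.24). Over the 13 genes the interval lay below no difference for 8 and above it for 1 in the cecum, beside 11.4% and 13.6% of all genes. In the tumor it did so for 3 and 0, beside 5.96% and 7.56%.

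**Figure D2:**
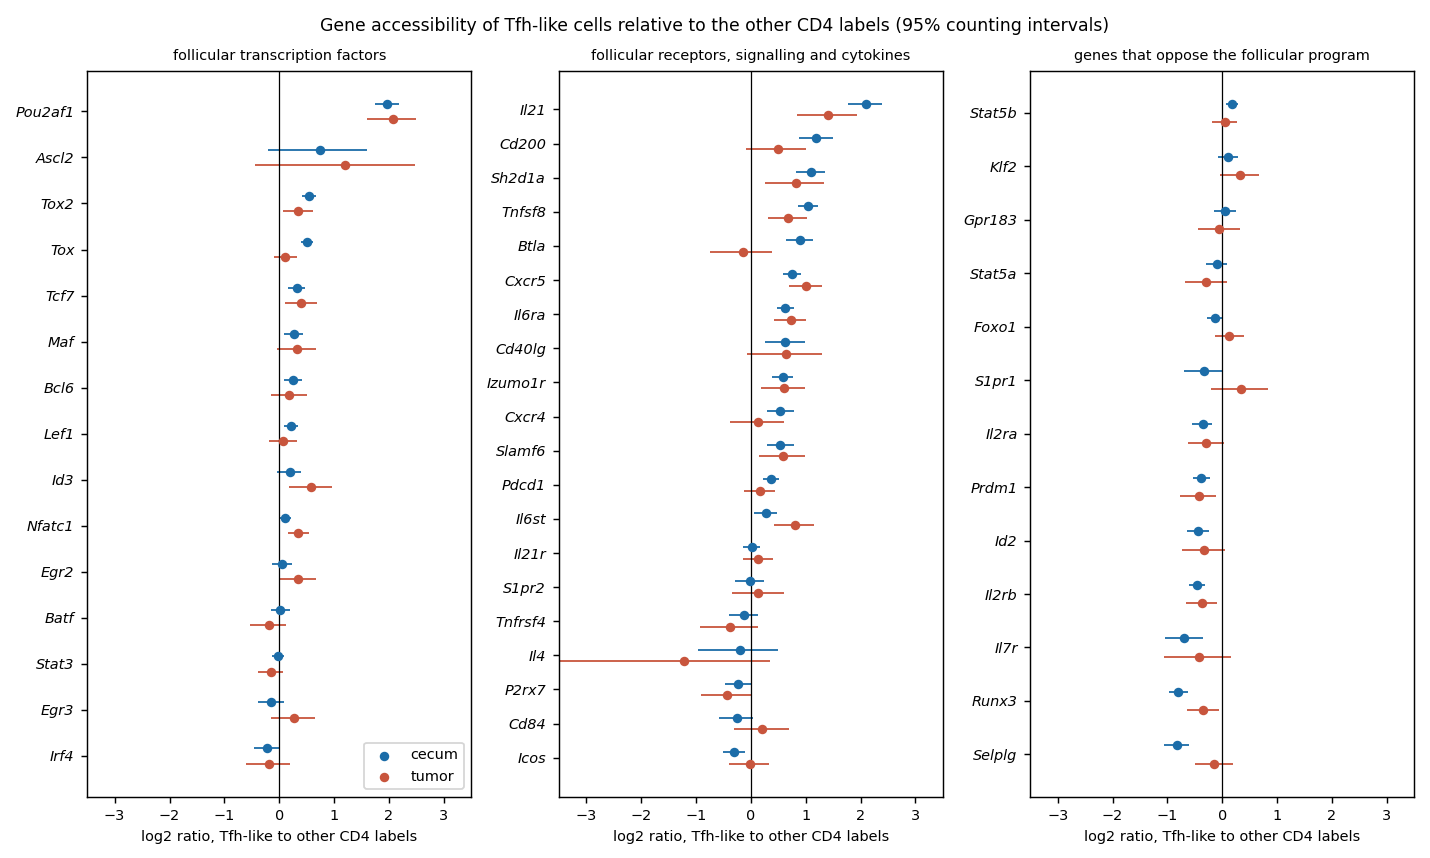
Log2 ratio of Tfh-like cells to the other CD4 labels summed (x axis) for each follicular gene and each opposing gene, in the cecum (blue) and tumor (red), with 95% counting intervals. Il21 (2.09 and 1.41) and Pou2af1 (1.97 and 2.07) lie farthest to the right in both libraries, Bcl6 (0.25 and 0.18) near 0, and Selplg and Runx3 lowest among the opposing genes in the cecum.

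Among genes of other helper lineages, those of Th17 cells were lower. Of 7 Th17 genes, 6 were past 1.5-fold lower in cecum cells and 7 in tumor cells, beside 6.65% and 14.2% of all genes. Of the 7 in the tumor, Il17f had 0 Tfh-like fragments, and its interval reached up to a log2 of 0.15, which includes no difference. Il22 had 1 fragment (log2 -0.84, -6.17 to 1.68). Il17a had 2 fragments in Tfh-like cells of the cecum (0.938 against 14.0 FPM) and 0 in the tumor, against 11.5 FPM in the other CD4 labels. With 3 counts taken for 0 it was 2.15-fold lower in the tumor, with the upper interval end at log2 -0.80. The gene of the main Th17 cytokine was thus nearly closed in Tfh-like cells, as in CCR7+ CD4 cells, which had 0 FPM in both libraries. Rora (log2 -0.87 and -0.81), Il23r (-0.76 and -0.85) and Ccr6 (-1.65 and -0.85) were lower in both, and Il17f in the cecum (-1.83, on 4 fragments). Of 5 Th2 genes, 4 were lower in the tumor and 2 in the cecum: Il5 (log2 -1.73, on 6 fragments) and Il1rl1, the IL-33 receptor (log2 -1.04, -1.37 to -0.72). Of the 4 in the tumor, Il5 had 1 fragment (log2 -2.44, -7.75 to 0.057) and Il4 3 (-1.21, -3.5 to 0.35), intervals that include no difference, and those of Il13 and Il1rl1 lay below it. Of 7 Th1 genes 2 were lower in both libraries, among them Il18r1, an IL-18 receptor chain (log2 -0.66 and -0.85), while Tbx21, which encodes T-bet, had -0.16 (-0.42 to 0.088) and Ifng 0.064 (-0.42 to 0.51) in the cecum.

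Foxp3, the defining Treg factor, was at 41.3 FPM in Tfh-like cells of the cecum against 102 FPM in IL10+ Treg cells, and its log2 ratio to the other CD4 labels, which include both Treg labels, was -0.74 (-1.07 to -0.43). In the tumor it was at 46.4 FPM, with a log2 ratio of -0.016 (-0.64 to 0.54). The Foxp3 window overlaps those of Ppp1r3f and Ccdc22, so fragments there cannot be assigned to Foxp3 alone. The share of cells with a Foxp3 fragment was 19.3% (15.1 to 24.1) of Tfh-like cells in the cecum, 37.3% of IL10+ Treg cells and 18.7% of Cytotoxic CD8 cells, which should not use the gene. In the tumor the shares were 22.5% (14.3 to 32.6), 35.1% and 20.8%. Reduced to 1000 fragments per cell, the expected shares were 3.92%, 10.1% and 3.75% (cecum) and 5.25%, 7.97% and 3.15% (tumor). The Tfh-like share thus lay near the CD8 share in the cecum and between the CD8 and Treg shares in the tumor, where the intervals of the first 2 overlap. Il10 was at 46.0 against 89.2 FPM in the cecum (log2 -0.96, -1.27 to -0.66) and 62.4 against 61.2 FPM in the tumor (log2 0.028, -0.50 to 0.51).

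Of 9 genes of homing to and residence in the gut wall, 4 were past 1.5-fold lower in cecum cells and 3 in tumor cells, beside the same 6.65% and 14.2%, and the list's median log2 ratio was -0.44 and -0.35. The other members lay within 1.5-fold, from -0.44 (Itga1) to 0.23 (Itga4) in the cecum. Ccr9, the small-intestinal homing receptor, had 9 fragments in Tfh-like cells of the cecum and 2 in the tumor, 4.22 and 3.57 FPM against 26.1 and 31.6 FPM (log2 -2.63, -3.77 to -1.69, and -3.15, -6.20 to -1.29). Gpr15, a receptor for homing to the large intestine, was at 15.5 against 30.3 FPM and 5.35 against 20.6 FPM. Itgae, which encodes the CD103 chain that binds E-cadherin, had log2 ratios of -0.67 (-0.90 to -0.44) and -0.96 (-1.46 to -0.50). These receptors and this integrin were lower in both libraries than in the other CD4 labels summed. In the cecum CCR7+ CD4 cells were lower still, at 4.19 FPM over Gpr15 and 61.2 FPM over Itgae, where Tfh-like cells had 78.8 FPM. For Ccr9 in the cecum, and for Ccr9, Gpr15 and Itgae in the tumor, Tfh-like cells were last of the CD4 labels of at least 50 cells. Rgs1, which dampens chemokine signalling in tissue lymphocytes, was lower in the cecum at 40.8 against 78.6 FPM, and had 60.6 against 55.0 FPM in the tumor. CCR7+ CD4 cells of the cecum had 37.7 FPM over Rgs1. Of 7 genes of naive and circulating T cells, 0 were past 1.5-fold higher in the cecum, and Ccr7, the lymph node homing receptor, had a log2 ratio of 0.49 (0.27 to 0.70).

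Markers of other cells the sort could hold were counted over whole lists. Of 9 B cell genes, 1 was higher and 1 lower in the cecum by 1.5-fold, where 5.51% and 6.65% of all tested genes were, and 1 was higher and 3 lower in the tumor, where 6.14% and 14.2% were. Pax5, the factor that maintains B cell identity, was at 90.5 against 19.6 FPM in the cecum (log2 2.21, 1.95 to 2.47) and 76.7 against 26.4 FPM in the tumor (log2 1.54, 1.06 to 1.98). Ms4a1, which encodes CD20, had 1 fragment in Tfh-like cells of the cecum and 0 in the tumor. Cd79a (99.4 against 90.8 FPM), Cd79b (6.10 against 7.94 FPM) and Ebf1 (23.4 against 21.4 FPM) were within 1.5-fold of the other CD4 labels in the cecum. In the tumor Cd79b had 2 fragments (3.57 against 8.14 FPM, log2 -1.19, -4.25 to 0.68) and Ebf1 9 (16.1 against 25.2 FPM, log2 -0.65, -1.79 to 0.29), both past 1.5-fold lower with intervals that included no difference. So Pax5 was above the other CD4 labels summed, while Ms4a1, Cd79a and Cd79b were not above them by 1.5-fold. The next labels over Pax5 were newly activated CD4 cells in the cecum at 44.5 FPM and Innate-like T#2 cells in the tumor at 56.0 FPM. The list summed to 299 FPM in Tfh-like cells of the cecum, or 208 FPM without Pax5, and to 197 to 284 FPM in the other CD4 labels with Pax5. In the tumor the sums were 264 FPM, 187 FPM and 194 to 277 FPM. Both ranges include Pax5, so the sums without it are not like for like with them. The window of Cd79a, shared with Rps19 and Arhgef1, held 99.4 of the 208 FPM and 94.5 of the 187 FPM. Blk, a Src-family kinase, was lower (log2 -1.37 and -1.39). The 6 myeloid genes summed to 170 FPM against 183 to 211 FPM in the cecum and 198 FPM against 169 to 201 FPM in the tumor, the 6 epithelial genes to 73.2 FPM against 74.6 to 144 FPM and 91.0 FPM against 89.4 to 150 FPM, and Krt19 had 0 fragments in both. The shared window of Cd68 held 99.9 of the 170 and 125 of the 198 FPM of the myeloid genes. Past 1.5-fold in the cecum were Itgax (log2 -2.07), Krt8 and Cdh1 (-0.86 and -1.06) and, on 12 fragments, Cdx2 (0.84, -0.20 to 1.76). The 4 CD8 and innate-like genes summed to 16.9 FPM against 22.9 to 65.4 FPM in the cecum, with Cd8b1 and Fcer1g past 1.5-fold lower (log2 -1.03 and -1.26). In the tumor they summed to 25.0 FPM, within the 22.7 to 61.0 FPM of the other CD4 labels. There Cd8b1 was lower (log2 -1.62) and Fcer1g was at 10.7 against 9.08 FPM. All 5 T cell genes were within 1.5-fold.

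**Figure D3:**
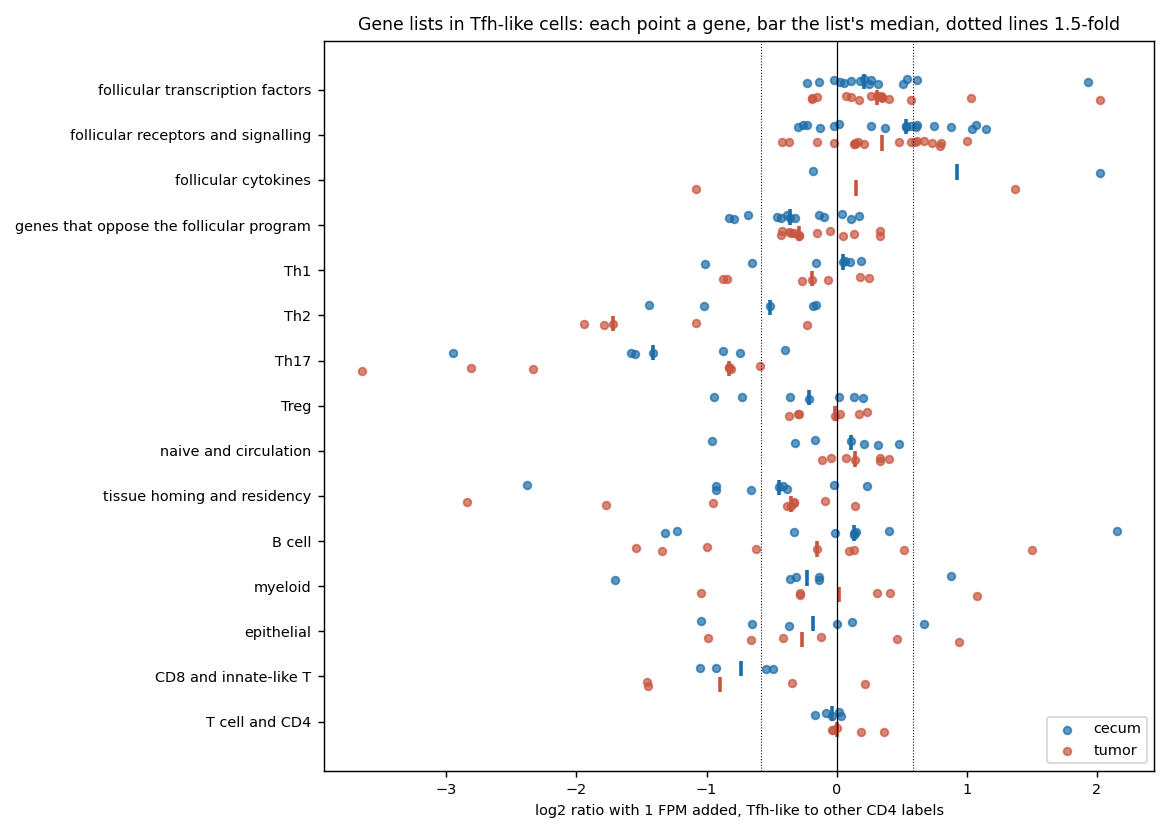
Log2 ratio of Tfh-like cells to the other CD4 labels with 1 FPM added (x axis) for every gene of 15 lists in the cecum (blue) and tumor (red); bars are list medians and dotted lines 1.5-fold. Follicular genes lie mostly to the right of 0, Th17 and homing genes to the left, and Pax5 alone among the B cell genes lies past the line on the right in both libraries (2.15 in the cecum).

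Over all genes tested, 885 were higher and 1067 lower in Tfh-like cells of the cecum by at least 1.5-fold. Of the higher genes that were also tested in the tumor, 67.6% of 884 had a log2 ratio above 0 there, against 52.4% of all 16019 genes tested in both. Past 1.5-fold higher were 32.0% of the 884, against 6.01% of all, and past 1.5-fold lower 12.8%, against 13.0% of all. The minimum of fragments that a gene needed counted those of Tfh-like cells in both libraries. Genes low in the other CD4 labels could thus enter through the Tfh-like fragments that made them higher. The gene shares were not taken again with the minimum on the other CD4 labels alone, so their dependence on it was not tested. Of the lower genes, 84.9% of 1055 had a ratio below 0 in the tumor, 59.2% were past 1.5-fold lower, against 13.0% of all, and 2.94% past it higher, against 6.01%.

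The 10 highest genes, ranked by the interval bound nearest to no difference in the cecum, were Susd4, Chn1, Fbn2, Sostdc1, Cebpa, Pax5, Scg2, Anxa3, Il21 and Naip1. Tfh-like cells were first of all labels of at least 50 cells in the cecum for 9 of them, the exception being Scg2, and in the tumor for 8 of the 9 that were tested there, the exception being Sostdc1. Sostdc1 and Scg2 reached the minimum of 50 fragments in the cecum only with those of Tfh-like cells (30 with 32, and 32 with 42), and Scg2 missed it in the tumor. Susd4, which encodes a membrane inhibitor of complement, was at 51.6 against 7.06 FPM in the cecum (log2 2.87, 2.48 to 3.25) and 30.3 against 7.47 FPM in the tumor (log2 2.02, 1.21 to 2.74), and near start sites the ratios were 3.5 and 2.97. Chn1, which encodes chimaerin 1, a Rac GTPase-activating protein, was at 83.9 against 13.6 FPM (log2 2.63, 2.34 to 2.91) and 41.0 against 14.9 FPM (log2 1.46, 0.79 to 2.07), and near start sites 1.40 and 0.66. Cebpa, a factor known from myeloid and liver cells, was at 72.7 and 69.6 FPM, about equal in the libraries, against 15.0 and 16.9 FPM (log2 2.28, 1.98 to 2.57, and 2.04, 1.53 to 2.52). IL10- Treg cells came next for Cebpa, at 35.0 and 25.0 FPM, and without both Treg labels its ratio was 3.17 in the cecum. In each of these genes the Tfh-like level stood above that of every other label of at least 50 cells in both libraries. Fbn2, which encodes a fibrillin of elastic fibers, had log2 ratios of 2.74 and 1.79 (5.33 and 3.40 near start sites), and Anxa3, an annexin, 2.16 and 1.06. Naip1, whose family holds near copies that short fragments may not separate, had 2.45 and 1.92. Sostdc1, a secreted antagonist of BMP signalling, had 30 fragments in the cecum (log2 2.91) and 3 in the tumor (log2 0.66, -1.65 to 2.26). Scg2, a secretogranin, had 32 Tfh-like fragments in the cecum (log2 2.61, 1.90 to 3.31, and 1.81 against the equal-weight mean of the CD4 labels) and in the tumor 4 against 41, too few for the minimum.

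The 10 lowest were Ppp1r14c, Gas7, Adamts16, Nckap5, Rhobtb1, Il17a, Gcnt2, Oacyl, Gzmb and Adgrg3, and all were past 1.5-fold lower in the tumor as well. Ppp1r14c, an inhibitor of protein phosphatase 1, had 2 fragments in Tfh-like cells of the cecum (0.938 against 24.3 FPM) and 1 in the tumor (1.78 against 17.8 FPM). Gas7, a cytoskeletal adaptor, was at 10.8 against 80.5 FPM and 10.7 against 100 FPM (log2 -2.90, -3.56 to -2.31, and -3.22, -4.67 to -2.10). Nckap5 was at 27.2 against 151 FPM (log2 -2.47) and 28.5 against 108 FPM (-1.92), ratios that shrank to -0.93 and -0.89 without both Treg labels. These windows were nearly closed or much reduced in Tfh-like cells of both tissues, but not in them alone. In the cecum newly activated CD4 cells had 0 FPM over Ppp1r14c. CCR7+ CD4 cells had 1.68 FPM over Gas7 and 3.35 FPM over Nckap5 there, also below Tfh-like cells. Gzmb, which encodes the cytotoxic protease granzyme B, was at 4.22 against 29.3 FPM (log2 -2.80, -3.93 to -1.86) and 5.35 against 22.4 FPM, the lowest of all labels in both libraries. Rhobtb1 had 3 fragments in the cecum (log2 -3.62) and 0 in the tumor. With 3 counts taken for 0 it was 2.91-fold lower there, with the upper interval end at log2 -1.24. Gcnt2, a branching glycosyltransferase, had log2 ratios of -2.48 and -1.58, Adamts16, a secreted metalloprotease, -3.35 and -3.28 (0.0064 near start sites in the cecum), Adgrg3, an adhesion receptor, -3.08 (-0.80 near start sites) and -3.79, and Oacyl -2.69 and -4.13.

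Promoters were compared next, as the 300 bases from 250 before to 50 after each RefSeq start site (GRCm38.p6). RefSeq entries matched 82 of the 114 listed genes and 27 of the 35 follicular genes, and Cxcr5, Sh2d1a, Maf, Tox, Icos and Cd40lg were among those without. The 250 bases before the start are shown for genes picked after their values were seen: Il21, Pou2af1, Cebpa and Susd4, whose promoters were more open in Tfh-like cells, and Bcl6, whose promoter interval included no difference.
Il21, chr3:37232637-37232886, minus strand: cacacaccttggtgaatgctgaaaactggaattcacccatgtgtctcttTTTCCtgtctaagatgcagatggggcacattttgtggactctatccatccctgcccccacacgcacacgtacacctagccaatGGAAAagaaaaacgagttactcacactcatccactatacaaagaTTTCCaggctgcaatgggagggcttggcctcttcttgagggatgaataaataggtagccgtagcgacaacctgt
Pou2af1, chr9:51213440-51213689, plus strand: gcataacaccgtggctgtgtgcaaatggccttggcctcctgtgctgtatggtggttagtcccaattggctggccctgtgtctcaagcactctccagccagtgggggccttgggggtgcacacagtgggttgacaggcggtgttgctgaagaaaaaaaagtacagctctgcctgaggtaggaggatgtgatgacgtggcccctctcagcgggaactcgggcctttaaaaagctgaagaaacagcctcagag
Cebpa, chr7:35119043-35119292, plus strand: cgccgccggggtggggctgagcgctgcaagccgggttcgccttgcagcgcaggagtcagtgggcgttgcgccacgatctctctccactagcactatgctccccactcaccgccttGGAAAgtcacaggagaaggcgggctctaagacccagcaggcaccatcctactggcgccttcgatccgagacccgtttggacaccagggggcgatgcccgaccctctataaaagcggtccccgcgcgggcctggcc
Susd4, chr1:182763966-182764215, plus strand: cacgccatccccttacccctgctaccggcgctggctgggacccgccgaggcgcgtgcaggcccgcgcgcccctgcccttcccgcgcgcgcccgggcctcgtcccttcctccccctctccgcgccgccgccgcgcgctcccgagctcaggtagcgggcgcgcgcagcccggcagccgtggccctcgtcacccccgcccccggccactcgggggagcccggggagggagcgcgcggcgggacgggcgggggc
Bcl6, chr16:23988853-23989102, minus strand: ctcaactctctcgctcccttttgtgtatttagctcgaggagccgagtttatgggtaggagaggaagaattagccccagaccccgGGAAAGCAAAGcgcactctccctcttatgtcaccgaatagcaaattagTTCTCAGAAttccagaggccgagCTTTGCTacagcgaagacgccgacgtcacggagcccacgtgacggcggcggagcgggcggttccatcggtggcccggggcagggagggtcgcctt
Capitals mark matches, on either strand, to CTTTGNT (TCF/LEF), TGANTCA (AP-1), CAGCTG (E-box), TTCNNNGAA (STAT or BCL6), ATGCAAAT (octamer) and GGAAA (the NFAT core). Such matches describe the letters only.

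The Il21 promoter had 22 fragments in Tfh-like cells of the cecum against 18 in the other CD4 labels (10.3 against 1.05 FPM, log2 3.30, 2.33 to 4.28), and 4 against 64 in the tumor (7.13 against 2.85 FPM, log2 1.33, -0.59 to 2.75). Its sequence held 3 NFAT cores and none of the other motifs. The tumor value rests on 4 fragments and its interval includes no difference. The Pou2af1 promoter was at 22.5 against 7.88 FPM in the cecum (log2 1.51, 1.01 to 2.0) and 30.3 against 5.92 FPM in the tumor (log2 2.36, 1.54 to 3.09), with no match to any of the 6 motifs. The Cebpa promoter was at 34.7 against 6.19 FPM (log2 2.49, 2.04 to 2.93) and 37.5 against 7.30 FPM (log2 2.36, 1.63 to 3.02). The first of 2 Susd4 promoters was at 30.5 against 2.45 FPM (log2 3.64, 3.05 to 4.23) and 23.2 against 2.22 FPM (log2 3.38, 2.38 to 4.28), and 82.8% of the 250 bases shown for it are G or C. The first of 2 Bcl6 promoters was open alike, at 23.4 against 20.2 FPM (log2 0.22, -0.24 to 0.65) and 25.0 against 18.7 FPM (log2 0.42, -0.47 to 1.18), and held 2 TCF/LEF matches, 1 STAT or BCL6 match and 1 NFAT core that shares a base with a TCF/LEF match. Bcl6 thus differed little at its promoter as over its span. The RefSeq promoter entry of Pax5 had 2 fragments in Tfh-like cells of the cecum and 0 in the tumor, against 0 and 5 in the other CD4 labels. Within 1 kb of that start the Pax5 ratio was 3.01 in the cecum. A tile inside the Pax5 span, 0.110 kb from an end of a long noncoding RNA gene that lies there, had 22.0 against 3.44 FPM. Over all 32851 promoter entries 16.0% held the TCF/LEF letters, 6.75% AP-1, 13.0% the E-box, 7.02% STAT or BCL6, 1.60% the octamer and 55.6% the NFAT core. Among 864 entries of genes higher in the cecum the shares were 14.2%, 5.67%, 14.8%, 6.94%, 1.39% and 51.3%, each close to that of all entries.

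Tiles of 500 bp within 50 kb of a gene's span showed where the fragments lay, at loci picked after their gene values were known. A tile needed 20 fragments of Tfh-like and the other CD4 labels together in each library, so a tile could enter through Tfh-like fragments, and each count was also taken over tiles that reached 20 on the other CD4 labels alone. Of all tiles at any distance from start sites, 8.84% were at least 2-fold higher and 18.5% lower in cecum cells, and 12.6% and 31.9% in tumor cells. With the minimum on the other CD4 labels alone the shares were 6.89% and 19.1%, and 11.6% and 31.0%. Around Il21, 20 of 40 tiles were at least 2-fold higher in Tfh-like cells of the cecum and 0 lower, while in the tumor 13 of the 40 were higher and 8 lower. The 20 tiles higher in the cecum summed to a log2 ratio of 0.87 (0.46 to 1.25) in the tumor. Of the 32 tiles that reached 20 on the other CD4 labels alone, 16 were higher and 0 lower in the cecum, and 7 higher and 7 lower in the tumor, where the 16 summed to 0.75 (0.30 to 1.17). The most different tile lay 0.365 kb outside the Il21 span, at 14.1 against 1.34 FPM in the cecum and 14.3 against 3.60 FPM in the tumor. So many tiles around Il21 were more open in Tfh-like cells of the cecum, and tiles on both sides of no difference were found in the tumor. Around Pou2af1 all 9 tiles were higher in both libraries (tumor log2 2.15, 1.74 to 2.53), 3 of which entered only with Tfh-like fragments. The other 6 had a tumor log2 of 2.0 (1.55 to 2.42). Its most different tile lay 27.2 kb outside the span, with 31 Tfh-like fragments against 13 in the cecum and 5 against 16 in the tumor, and is 1 of those 3. Around Cxcr5 16 of 55 tiles were higher and 2 lower in the cecum, and 11 were higher and 17 lower in the tumor, where the 16 summed to 1.27 (0.92 to 1.60). On the other CD4 labels alone these counts were 13 of 51 and 2, and 11 and 13 (tumor log2 1.35). A tile 6.56 kb outside the Cxcr5 span had 31.9 against 12.3 FPM in the cecum and 25.0 against 10.7 FPM in the tumor. Around Cebpa 8 of 9 tiles were higher in the cecum (tumor log2 2.12, 1.68 to 2.53), or 6 of 7 on the other CD4 labels alone (2.06). Around Pax5 5 of 9 were higher (tumor log2 1.92, 1.3 to 2.48), or 4 of 8 (1.71). Around Pdcd1 9 of 37 were higher and 3 lower in the cecum, and 3 higher and 10 lower in the tumor, where the 9 summed to a log2 of 0.14 (-0.62 to 0.81), and 7 of 32 were higher and 3 lower in the cecum on the other CD4 labels alone. Around Bcl6 2 of 26 were higher and 1 lower in the cecum, and 5 higher and 6 lower in the tumor, and on the other CD4 labels alone 1 of 25 was higher and 1 lower in the cecum.

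**Figure D4:**
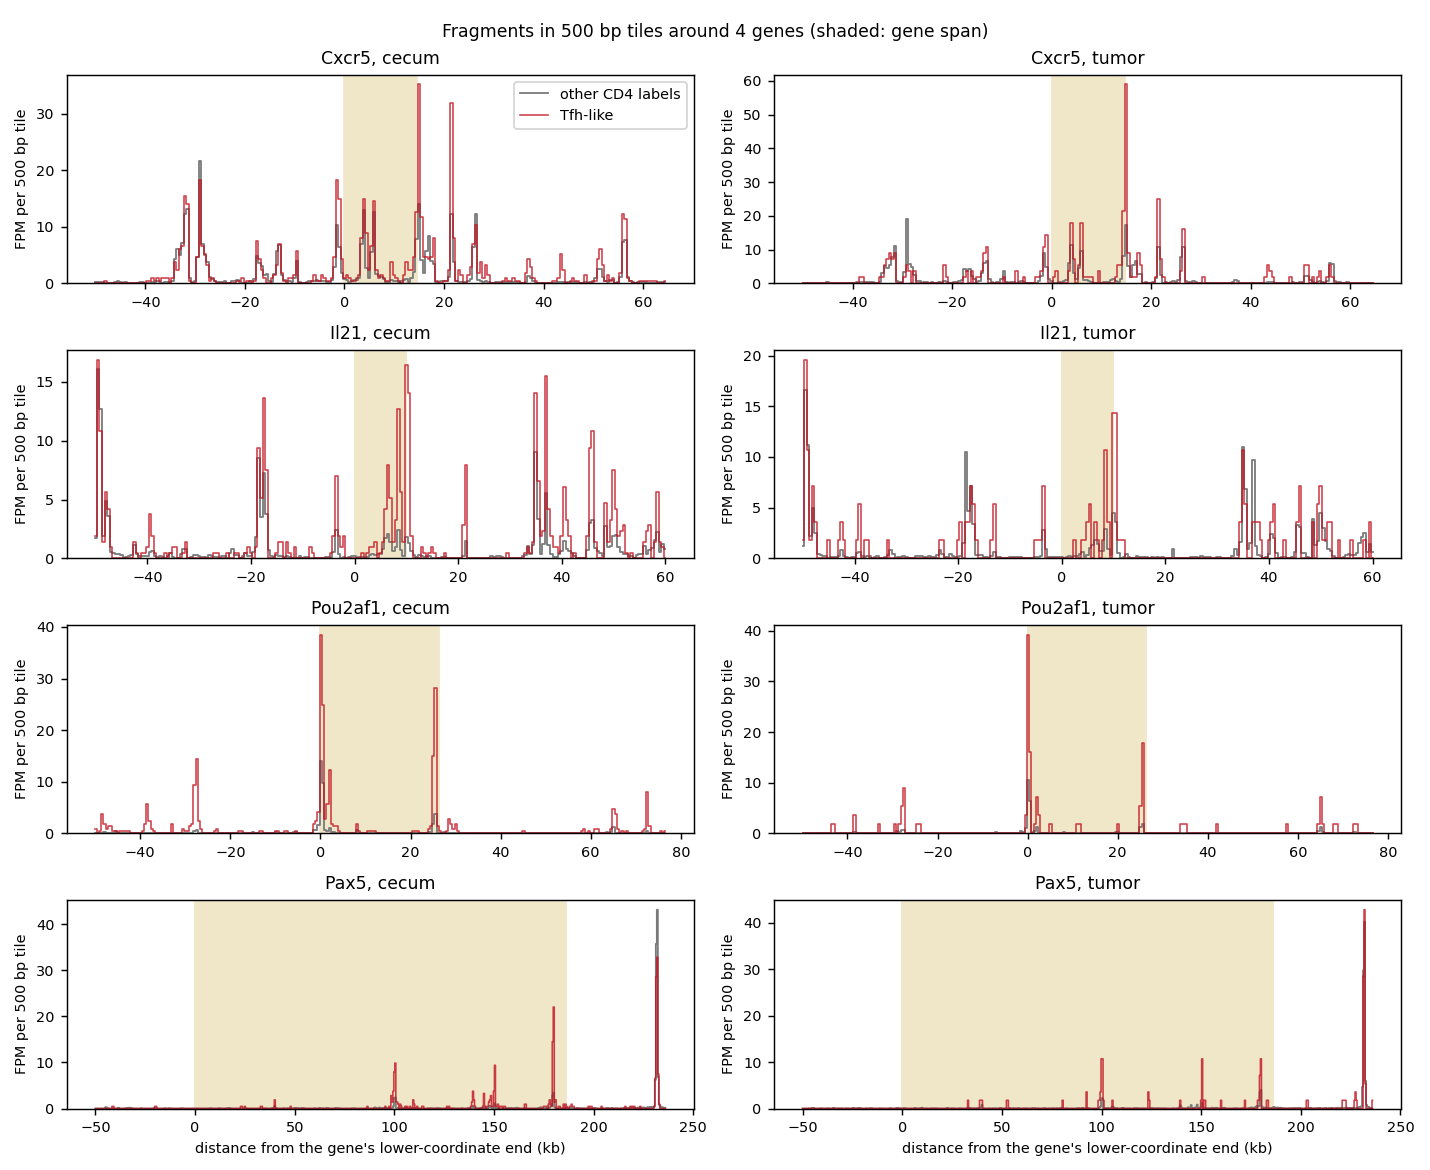
FPM in 500 bp tiles (y axis) against distance from the lower-coordinate end of the gene (kb, x axis) around Cxcr5, Il21, Pou2af1 and Pax5 in the cecum (left) and tumor (right), for Tfh-like cells (red) and the other CD4 labels summed (grey); the gene span is shaded. Tfh-like cells exceed the other labels at separate peaks in and around the genes, such as 35.2 against 14.1 FPM beside the Cxcr5 span in the cecum, while other peaks nearby are level.

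Lpp, whose introns are known to hold distal elements of the Bcl6 locus, begins 404 kb from Bcl6. Of 33 distal tiles in its span (chr16:24393350-24992578), 10 were at least 2-fold higher in Tfh-like cells of the cecum and 5 lower, and 8 higher and 9 lower in the tumor, while of all distal tiles 11.1% were higher and 24.0% lower in cecum cells, and 14.6% and 37.9% in tumor cells. Summed, these 33 tiles gave a log2 ratio of 0.68 (0.51 to 0.85) for cecum and 0.14 (-0.22 to 0.49) for tumor cells. The cecum value depended on 7 tiles that reached the minimum of 20 only with Tfh-like fragments. Without them 3 of 26 tiles were higher and 5 lower in the cecum and 3 higher and 7 lower in the tumor, and the sums were 0.13 (-0.077 to 0.33) and -0.14 (-0.56 to 0.25). Lpp as a whole was thus not set apart once these tiles were left out. The highest tile, 851 kb from Bcl6 and 1 of the 7, had 26 Tfh-like fragments from 23 cells in the cecum against 5 in the other CD4 labels, and 0 against 20 in the tumor. A tile 848 kb away, also 1 of the 7, had 20 against 6 fragments in the cecum and 5 against 28 in the tumor. A count of 0 in the tumor is a weak limit, as the interval of the tile 851 kb away reached up to a log2 of 3.02 there.

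Distal chromatin was read in 86959 tiles of 500 bp at least 1 kb from any start site, each with at least 20 fragments of Tfh-like and the other CD4 labels together in both libraries. In the cecum 9610 were at least 2-fold higher in Tfh-like cells and 20904 lower, the 11.1% and 24.0% given for Lpp. These calls use the ratio alone, so a stricter set was taken of 1195 tiles whose whole interval lay above 2-fold in the cecum. In the tumor, whose fragments entered only the minimum of 20, these tiles summed to a log2 ratio of 1.37 (1.33 to 1.41), and 60.5% were at least 2-fold higher, against 14.6% of all tiles. That minimum counted Tfh-like fragments of the tumor, so the choice was repeated. With the minimum in the cecum alone, 1490 tiles were chosen, with a tumor log2 ratio of 1.43 (1.39 to 1.47) and 63.3% at least 2-fold higher, against 16.3% of all. With the tumor minimum over the other CD4 labels alone, 1144 tiles had 1.33 (1.29 to 1.37) and 58.7%, against 13.9%. With the minimum over the other CD4 labels alone in both libraries, 828 tiles had 1.34 (1.30 to 1.39) and 62.1%, against 13.5%. The 742 tiles whose interval lay below 2-fold summed to -1.54 (-1.61 to -1.46) in the tumor, and 72.8% were at least 2-fold lower there, against 37.9%. Of the 1195 tiles 64.3% lay in spans of protein-coding genes, against 61.9% of all tested tiles, at a median of 14.3 kb from a start site against 9.04 kb.

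In the tumor library the 1195 tiles held 0.845% of the fragments of Tfh-like cells, the highest of 17 labels, counting cells with at least 1000 fragments. CCR7+ CD4 cells came next with 0.574%, then CCR7+ CD8 cells with 0.458%, newly activated CD4 cells with 0.389%, Innate-like T#2 cells with 0.386% and PD1+ CD4 cells with 0.372%. IL10- Treg cells had 0.286%, Mucosal Th1 cells 0.270%, IL10+ Treg cells 0.264% and Cytotoxic gdT cells, the last, 0.157%. In the 1490 tiles chosen with a minimum in the cecum alone, Tfh-like tumor cells had 0.915% of their fragments and CCR7+ CD4 cells, again the next, 0.625%. Both sets hold tiles that reached the minimum only with Tfh-like fragments. The order of labels was not taken over the 828 tiles with the minimum on the other CD4 labels alone. The median Tfh-like tumor cell had 0.841% of its fragments in the 1195 tiles (quartiles 0.666 and 1.0), and 6.67% of CCR7+ CD4 cells, 2.65% of newly activated CD4 cells, 1.43% of PD1+ CD4 cells and 0 of 348 IL10+ Treg cells reached that value. The value rests on a median of 46.0 fragments per Tfh-like cell. In the cecum, where the tiles were chosen, Tfh-like cells had 1.29% and CCR7+ CD4 cells 0.531%.

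**Figure D5:**
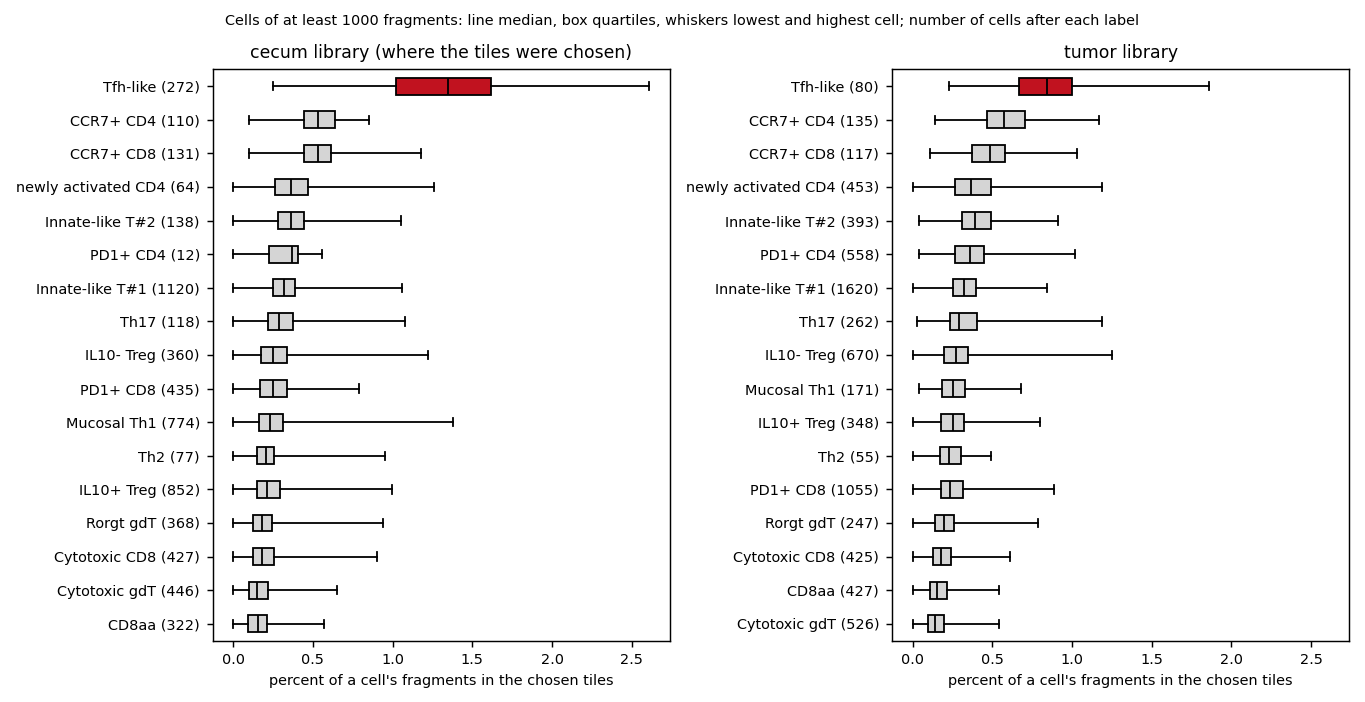
Percent of each cell's fragments (x axis) in the 1195 distal tiles chosen in the cecum, by label, in the cecum (left) and tumor (right), for cells of at least 1000 fragments; lines are medians, boxes quartiles, and whiskers the lowest and highest cell. Tfh-like cells (red) lie highest in the tumor with a median of 0.841%, above CCR7+ CD4 cells at 0.575%, and the boxes of these labels overlap slightly. Some of the tiles reached the minimum only with Tfh-like fragments.

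Of the 8 highest distal tiles, 6 are described: those in the spans of Lpp, Ext1, Lekr1 and Usp7, 1 that lay 5.16 kb from Chn1 and 1 nearest to Iws1. Their Tfh-like fragments in the cecum came from 23 to 52 cells, with at most 4 from 1 cell. The tile in Lekr1 (chr3:65793501-65794000) had 50 Tfh-like fragments against 17 in the cecum (23.4 against 0.992 FPM) and 6 against 25 in the tumor (10.7 against 1.11 FPM, log2 3.27, 1.69 to 4.59). The tile near Chn1 (chr2:73605001-73605500) had 27 against 7 and 5 against 16 fragments (tumor log2 3.65, 1.84 to 5.16), and that in Ext1 33 against 9 and 5 against 20 (3.33, 1.56 to 4.78). The tile nearest to Iws1 had 76 against 32 and 11 against 18 fragments (4.61, 3.39 to 5.78). These tumor values rest on few fragments. The tile in Usp7 had 27 against 8 in the cecum and 2 against 22 in the tumor (1.87, -1.27 to 3.89). Each of the 6 reached the minimum of 20 only with Tfh-like fragments, 5 of them in the cecum and those near Chn1 and nearest to Iws1 in the tumor, so the values are a description of these tiles and support nothing.

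The 4 lowest tiles lay 10.7 kb from Plac8, in Bst1, 102 kb from Cpm and in Fyco1, the gene beside Ccr9. Those nearest to Plac8 and in Bst1 had 0 Tfh-like fragments in the cecum against 227 and 197. With 3 counts taken for 0 they were 9.42-fold and 8.17-fold lower, with upper interval ends at log2 -2.93 and -2.72. In the tumor they had 0 and 1 against 316 and 234. The Fyco1 tile (chr9:123835501-123836000) had 1 against 285 fragments in the cecum and 1 against 424 in the tumor. The tile nearest to Cpm had 0 against 192 in the cecum, 7.96-fold lower by the same rule, with the upper interval end at log2 -2.68. In the tumor it had 5 against 204 (log2 -0.025, -1.66 to 1.22). These tiles were also nearly empty in CCR7+ CD4 cells of the cecum. Those cells had 0 FPM in the tiles of Plac8, Cpm and Fyco1 and 1.68 FPM in that of Bst1.

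Per cell, coverage was thin. An Il21 fragment was found in 28.0% (23.1 to 33.3) of Tfh-like cells of the cecum library and 24.7% (16.2 to 35.0) of those of the tumor, against 1.22% and 1.20% of Innate-like T#1 cells. In the tumor PD1+ CD4 cells with 22.2% (19 to 25.7) and Th17 cells with 20.8% (16.3 to 25.9) lay within the Tfh-like interval, at median depths of 9642 and 6327 fragments against 4576. Reduced to 1000 fragments per cell, which left out 39 cecum and 9 tumor cells of the label, the expected shares for Tfh-like cells were 6.05% and 5.39%, the highest of all labels of at least 50 cells in both, ahead of newly activated CD4 cells with 4.10% in the cecum and of Th17 and PD1+ CD4 cells with 3.30% and 2.97% in the tumor. For Cxcr5 the share in the cecum was 48.2% (42.6 to 53.9) in Tfh-like cells, 51.7% in CCR7+ CD8 and 49.6% in CCR7+ CD4 cells, whose median depths were 7061 and 8588 fragments. At 1000 fragments the Cxcr5 shares were 13.9%, 12.6% and 10.6%, with Tfh-like cells first. For Pax5 the Tfh-like share at 1000 fragments was 8.49% (cecum) and 7.15% (tumor), first in both, and for Pou2af1 11.6% (first) and 8.13% (second).

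Likeness to other labels was described by r over genes of log2 FPM with 1 FPM added, each label reduced to 400000 fragments. In the cecum r was highest with Mucosal Th1 (0.884), newly activated CD4 (0.879), IL10+ Treg (0.878) and IL10- Treg cells (0.876), over 16054 genes. In the tumor it was highest with newly activated CD4 (0.894), Mucosal Th1 (0.889) and CCR7+ CD8 cells (0.887), over 16584 genes, and 0.869 with PD1+ CD4 cells. The labels of a tissue share 1 library, and every label shares the lengths and base composition of the genes, so r is a description.

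Tfh-like cells of the tumor were last compared with those of the cecum, a difference of tissue that cannot be told apart from that of library. Of the 114 listed genes, 104 had an interval that included no difference, 7 were higher and 3 lower in the tumor, or 6.14% and 2.63%. Over all 16019 genes tested in both libraries, 3.20% had an interval above and 3.06% below no difference, so the lower share of the list was near that of all genes. Among the higher ones were S1pr1, Selplg, Runx3, Rora, Ccr6 and Cdh1. Selplg went from 80.7 FPM to 130 FPM (log2 0.69, 0.28 to 1.09), and the 7 other CD4 labels of at least 50 cells in both tissues had ratios from -0.14 to 0.19. S1pr1, the receptor for exit from tissue, went from 36.6 to 60.6 FPM (log2 0.73, 0.10 to 1.33), with -0.11 to 0.41 in the other labels, and Runx3 from 133 to 182 FPM (log2 0.45, 0.11 to 0.78), with -0.24 to 0.018. The lower ones were Tox2 (log2 -0.32, -0.62 to -0.029), Tox (-0.28, -0.52 to -0.053) and Btla (-0.59, -1.22 to -0.0018), and all 7 other labels were also lower in the tumor for Tox2. Il21 and Cxcr5 were among the 104. At 89 tumor cells, single genes are known only within wide intervals.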

How the data were processed

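T cells of the cecum and the tumor were measured by multiome sequencing, with 1 ATAC and 1 RNA library per tissue. Only the ATAC data entered this work, with the labels taken from the RNA. According to the headers and labels, Cell Ranger ARC 2.0.0 and mm10 were used by the authors for the fragment files. Each deposited line is 1 unique fragment with the count of its read pairs, neither normalized nor filtered, so PCR duplicates had been collapsed by the authors. Ends are as the pipeline adjusts them for the transposase. The authors filtered nuclei on quality measures of both assays, clustered the RNA and deposited a label for each cell. No doublet caller was run here.

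The cecum library held 66466111 and the tumor library 96747563 fragments, and labelled cells held 66.2% and 64.2% of them. Counts were made over autosomes and sex chromosomes. A fragment added 1 to any window that held at least 1 of its ends, and counts were added up by label and divided by the label's total in units of 1000000 fragments (FPM). Gene windows were RefSeq spans (GRCm38.p6, the build of mm10) with 5 kb on both sides. Windows near start sites were 1 kb on both sides of each start. For genes without a listed start, such as Cxcr5, Icos, Cd40lg, Sh2d1a and Tox, they lay around both gene ends. Genes needed 50 fragments over Tfh-like and the other CD4 labels, and calls needed a log2 ratio with 1 FPM added past 1.5-fold, which understates low genes. Distal tiles were 500 bp, at least 1 kb from any start site (from either gene end where no start was listed), with 20 fragments in each library, and were called at 2-fold from the counts. Ratios have exact conditional and shares exact Clopper-Pearson 95% intervals, which cover counting error only and not variation between animals or cells. A count of 0 was set to 3 for a fold, and the upper end of the exact interval lies closer to no difference than that fold. Named were the members of the lists past 1.5-fold in the cecum, and the 10 highest and 10 lowest genes and 8 highest and 4 lowest tiles by the interval bound nearest to no difference, some further list genes being named with values as a contrast. The label, the lists and the tests were chosen with earlier results of these data known. The loci viewed in tiles were chosen after their gene values were seen. Alternatives were other sets of cells, windows, scalings, comparison labels, pseudocounts and minimums. Leaving out PD1+ CD4 cells and other minimums of tiles were added after seeing the data. The counter and the intervals were tested on simulated data. Scripts used Python 3.11.15 with scipy 1.17.1 for intervals, numba 0.67.0 for counting, numpy 2.4.6 and pandas 2.3.3, and figures matplotlib 3.10.9. Some members of the lists and some tiles named by these rules are not reported here.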

Additional observations from a re-analysis of the deposited data

How the results depend on the processing

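No paired analysis was possible because each tissue had 1 library. The direction of Cxcr5, Bcl6 and the follicular median was kept under every alternative run. The Cxcr5 log2 ratio in the cecum became 1.27 near start sites, 0.96 against the equal-weight mean of CD4 labels and 1.14 without both Treg labels, and that in the tumor 1.70 near start sites. Genes higher in the cecum (885) became 545 with a pseudocount of 5 FPM, 1332 with no minimum and 479 with a minimum of 200 fragments, and genes lower (1067) became 598, 1718 and 555, and 455 near start sites. In the tumor, genes higher (1019) became 653, 1569 and 640, and genes lower (2353) became 3533 with no minimum, 1377 with 200 fragments and 1343 near start sites. The share of Tfh-like cells moves to 10.1% and 2.91% by its denominator, the CD4 labels. Distal tiles higher (9610) became 6400 without cells over 3 times the median depth, 5019 without both Treg labels, and 24349 and 3624 with minimums of 10 and 40 fragments, and tiles lower (20904) became 10657 without both Treg labels and 44606 and 8833 with those minimums. Tiles chosen again under each setting had tumor log2 ratios of 1.07 without both Treg labels, 1.42 without PD1+ CD4 cells 1.32 with a minimum of 40, 1.43 with the minimum in the cecum alone and 1.33 with the tumor minimum over the other CD4 labels alone, against 1.37. The tiles of Lpp lost their higher sum with the minimum over the other CD4 labels alone (0.13 against 0.68). Of 599 values for 52 named genes, 532 stayed within the interval of the value reported, and 51 left it in the same direction. The sign changed for 34 values, 21 of them near start sites. For 28 of these the reported interval included no difference, and 10 of the 28 left that interval. The other 6 were all in the cecum: Tcf7 (-0.086) and Lef1 (-0.034) without both Treg labels, and Adamts16 (0.0064), Irf4 (0.044), Il6st (-0.30) and P2rx7 (0.39) near start sites. Among further moves of over 1.5 times near start sites, Il21 went to 2.95 for cecum cells and, for tumor cells, Sh2d1a to 1.65, Ascl2 to 2.10, Tox to -0.61, Btla to -1.21, Cd84 to -0.49, Il21r to -0.69 and Il4 to 0.077. For Sh2d1a and Tox, without a listed start, these windows lay around both gene ends. Without both Treg labels, in the cecum, Ppp1r14c moved to -3.41, Rhobtb1 to -2.74 and Adamts16 to -2.69, and Il4 to -1.05 against the equal-weight mean. The causes were not tested. Depth limits the tumor more than the cecum, with 560742 against 2132387 Tfh-like fragments, and cells or animals were not replicated in any comparison.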
